A study of Mus musculus with 12 samples.

Results

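The 35 genes described here take fatty acids from the blood into the heart muscle cell, activate them, carry them into mitochondria on carnitine and shorten them by β-oxidation, and 33 of them were measured in mouse hearts that lacked ERRα, carried a hypomorphic ErbB2 allele, or had both defects. Each gene was read from a probe set annotated to no other gene, the brightest on average across all 12 hearts where there was a choice. Of the other 2 listed genes, Cpt1b had only a probe set shared with several genes, and Acsl1 is not analysed here. The 33 genes stood among 22180 genes tested in all. By step they comprised 4 genes of uptake, 1 of activation, 5 of the carnitine shuttle, 13 of β-oxidation and 3 of electron transfer, with 3 thioesterases, 2 enzymes of malonyl-CoA and 2 proteins of the lipid droplet beside them. In hearts without ERRα, 16 of the 33 were lower and 1, Acsl6, was higher, against 3.27% and 3.5% of all genes. The hypomorphic ErbB2 allele alone moved none of the 33 past the threshold, and only 0.0135% of all genes passed there.

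The adult heart draws most of its ATP from long-chain fatty acids. A fatty acid is coupled to coenzyme A, passed to carnitine for its entry into the mitochondrion and then cut in rounds of dehydrogenation, hydration, a further dehydrogenation and thiolysis, with the electrons handed to the respiratory chain. ERRα is an orphan nuclear receptor that works with the coactivator PGC-1α and binds an extended half-site, TNAAGGTCA, in front of many genes of mitochondrial energy metabolism. ErbB2 is the receptor tyrosine kinase through which neuregulin acts on cardiomyocytes.

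Hearts came from male FVB mice aged 15 weeks, 3 hearts and 3 arrays in every group. KI:KO mice had both the ErbB2 cDNA knock-in, which lowers ErbB2, and the ERRα knock-out, ERRα KO mice had the knock-out alone, ErbB2 KI mice had the knock-in alone, and WT mice had neither allele. Both alleles were present throughout the body and not in cardiomyocytes alone, the mice were fed ad libitum, and RNA was extracted from powder of frozen heart, so that fewer cells of a type and less RNA per cell cannot be told apart. Values are deposited log2 values of Affymetrix Mouse Gene 2.0 ST arrays, and a difference is also given as the level in percent of the reference group. Differences were taken within a probe set across hearts. Brightness between probe sets was used only to choose the probe set of a gene, to choose backgrounds and to mark dim genes.

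The 12 arrays had medians from 4.58 to 4.65, and correlations between arrays over all probe sets lay from 0.975 to 0.988. Esrra, which encodes ERRα, was at 6.21, 6.17 and 6.36 in KI:KO hearts and at 6.39, 6.43 and 6.31 in ERRα KO hearts, against 7.54, 7.46 and 7.67 in ErbB2 KI hearts and 7.74, 7.40 and 7.56 in WT hearts, so that every label without ERRα matched. Erbb2 was at 5.97, 5.81 and 5.64 in KI:KO hearts and at 5.74, 5.94 and 5.61 in ErbB2 KI hearts, against 6.60, 6.43 and 6.80 in ERRα KO hearts and 6.56, 6.39 and 6.47 in WT hearts, so that the knock-in labels matched as well. It fell to 63.2% of WT in KI:KO hearts (limma, adjusted p = 0.00885), and ErbB2 KI hearts stood at 61.3% of WT without a call (adjusted p = 0.199). The mean log2 signal of 13 cardiomyocyte markers was 12.04 to 12.28 in every heart. A set of 4 arrays, 1 in each group (KI:KO 3, ERRα KO 2, ErbB2 KI 3 and WT 2), stood apart along the leading component of the deviations from group means, which held 26.3% of their variance.

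Sequences ahead of the transcription start were read from RefSeq (GRCm38.p6) for 29 of the 35 genes, since the data bear on a factor that binds promoters. Each window held 250 bases before the start and a short stretch after it, and both strands were searched for TNAAGGTCA and for its core AAGGTCA, which lies inside it. The extended site was in 1.28% of the 32851 promoters of all genes, or in 1.43% of 27025 genes, and the core in 4.72% of promoters, or in 5.38% of genes. The 29 members had 35 promoters. Among these genes only Acsl6 held the extended site, and none of the 14 genes that were lower in hearts without ERRα and had a promoter here held it. The core was in the promoters of Acsl6, Acadm and Acacb, the last in the bases after the start. A match is a description of letters, and a window without one says nothing of the factor's binding elsewhere.

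The stretches printed here show the gene with the smallest p among those that fell (Hadh), the region between a divergent pair that fell together (Hadha and Hadhb), and the members with a match ahead of the start (Acadm, Acsl6). The last 3 were chosen after their values were seen. They read 5′ to 3′ on the strand of the gene, and capitals mark matches, which lay on the opposite strand and so read as TGACCTT on the printed strand.
Hadh, chr3:131272102-131272351, minus strand, all 250 bases ahead of the start: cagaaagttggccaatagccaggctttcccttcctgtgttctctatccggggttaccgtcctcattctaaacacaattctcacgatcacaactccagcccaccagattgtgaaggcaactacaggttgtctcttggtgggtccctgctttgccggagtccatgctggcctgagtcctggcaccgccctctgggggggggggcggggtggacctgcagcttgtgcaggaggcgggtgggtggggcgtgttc
Hadhb, chr5:30155003-30155252, plus strand, all 250 bases ahead of the start, which reach into the promoter of Hadha: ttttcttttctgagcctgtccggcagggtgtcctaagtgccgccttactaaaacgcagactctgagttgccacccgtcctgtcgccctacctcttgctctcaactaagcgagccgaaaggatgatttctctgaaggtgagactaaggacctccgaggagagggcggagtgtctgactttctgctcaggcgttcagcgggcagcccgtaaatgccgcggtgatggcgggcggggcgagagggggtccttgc
Acadm, chr3:153944794-153944893, minus strand, the 100 most distant bases: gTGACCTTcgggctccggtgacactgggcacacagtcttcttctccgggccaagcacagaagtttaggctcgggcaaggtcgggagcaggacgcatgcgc
Acsl6, chr11:54303614-54303693, plus strand, the bases around its matches: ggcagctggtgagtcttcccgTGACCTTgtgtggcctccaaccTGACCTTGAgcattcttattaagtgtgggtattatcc
Hadha and Hadhb stood head to head on chromosome 5 with 272 bases between their starts, and their promoter windows shared 228 bases. In Acsl6 the matches began at positions -189 and -167 from the start, and the nearer one was the extended site.

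The comparison that used all 12 hearts set the 6 hearts without ERRα against the 6 with it, averaging the difference over both ErbB2 genotypes. Of the 33 genes, 16 fell (limma over all 22180 genes, Benjamini-Hochberg adjusted p under 0.05), against 3.27% of all genes called lower, and 1 rose, against 3.5% called higher. The median difference of the members was -0.25, against -0.01 for all genes. Since 30 members lay in the brightest 25% of genes, the share called lower among those genes, 8.58%, is the closer background, and 15 of the 30 were called lower. For 9 members all 6 hearts without ERRα lay below all 6 hearts with it, against 2.65% of all genes.

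**Figure D1:**
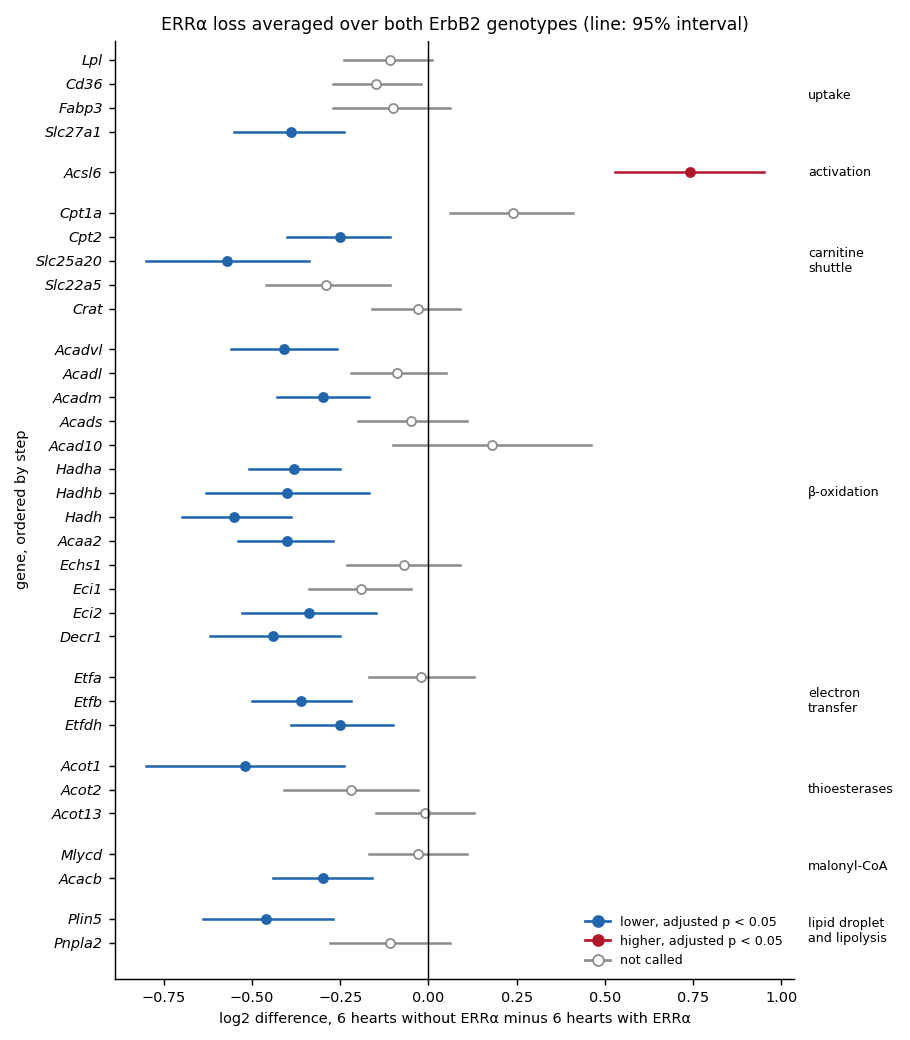
Log2 difference of the 33 genes between the 6 hearts without ERRα and the 6 hearts with it, with 95% intervals, by step; filled points passed an adjusted p of 0.05. The 16 genes called lower are spread over every step but activation, where Acsl6, the only gene measured, stands to the right at 0.74.

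Uptake showed 1 gene that fell among 4. Slc27a1 (chromosome 8, 71568728 to 71587307) encodes the fatty acid transport protein FATP1, which imports long-chain fatty acids and couples them to coenzyme A. Its log2 values were 8.52, 8.66 and 8.35 in KI:KO hearts, 9.10, 9.03 and 8.93 in ERRα KO hearts, 9.22, 9.06 and 9.11 in ErbB2 KI hearts and 9.09, 9.18 and 9.27 in WT hearts. The 3 KI:KO hearts were below every other heart, and the ERRα KO hearts overlapped the hearts with ERRα. Slc27a1 fell to 62.8% of WT in KI:KO hearts (limma, adjusted p = 0.00244) and to 65.1% of ErbB2 KI (adjusted p = 0.00558), while ERRα KO hearts stood at 89.3% of WT (adjusted p = 0.567).

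The other uptake genes were not called in any comparison. Lpl encodes lipoprotein lipase, which frees fatty acids from circulating triglycerides, and differed by -0.11 between hearts without and with ERRα (95% interval -0.24 to 0.01). Cd36 encodes the membrane fatty acid translocase and differed by -0.15 (-0.27 to -0.02; adjusted p = 0.181). Fabp3, the fatty acid-binding protein of the cardiomyocyte cytosol, differed by -0.10 (-0.27 to 0.06). All 3 genes had overlapping hearts without and with ERRα.

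Activation was read from Acsl6 alone (chromosome 11, 54303805 to 54364756), a long-chain acyl-CoA synthetase known best from the nervous system. Its values were 7.37, 7.87 and 7.74 in KI:KO hearts and 7.87, 8.08 and 7.72 in ERRα KO hearts, against 7.02, 6.87 and 6.95 in ErbB2 KI hearts and 7.08, 7.01 and 7.25 in WT hearts. Every heart without ERRα was above every heart with it. Acsl6 rose to 146% of WT in KI:KO hearts (adjusted p = 0.0377), to 171% of WT in ERRα KO hearts (adjusted p = 0.0119) and to 164% of ErbB2 KI in KI:KO hearts (adjusted p = 0.0133). The call of KI:KO against WT was lost without WT heart 1, 2 or 3 or KI:KO heart 2 or 3, that of ERRα KO against WT without WT heart 1 or 2, and that of KI:KO against ErbB2 KI without ErbB2 KI heart 2 or KI:KO heart 2. A dimmer probe set of the same gene averaged 4.99 ± 0.42 in KI:KO hearts, 4.89 ± 0.33 in ERRα KO hearts, 4.38 ± 0.29 in ErbB2 KI hearts and 4.55 ± 0.12 in WT hearts (SD, n = 3 each). With both probe sets of Acsl6 averaged, neither KI:KO nor ERRα KO hearts passed relative to WT (log2 0.49 and 0.56, adjusted p = 0.117 for both), and the average over both ErbB2 genotypes kept its call. Acsl1, the other listed gene of this step, has no values here. The paper reports its transcript and protein as lower in hearts lacking ERRα. The direction of activation as a whole can thus not be read from Acsl6.

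In the carnitine shuttle, the translocase and the inner-membrane transferase fell while the outer-membrane transferase did not. Slc25a20 (chromosome 9, 108662136 to 108684642) encodes carnitine-acylcarnitine translocase, which exchanges acylcarnitine for carnitine across the inner membrane. It measured 8.95, 9.46 and 8.81 in KI:KO hearts and 8.99, 8.91 and 8.87 in ERRα KO hearts, against 9.70, 9.50 and 9.50 in ErbB2 KI hearts and 9.67, 9.39 and 9.64 in WT hearts. Only KI:KO heart 2 and WT heart 2 overlapped across the 2 sides. Slc25a20 fell by 0.57 between hearts without and with ERRα (adjusted p = 0.00642) and to 64% of WT in ERRα KO hearts (adjusted p = 0.0483), whereas its 70.8% of WT in KI:KO hearts did not pass (adjusted p = 0.0840).

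Cpt2, the transferase that returns acyl groups to coenzyme A inside the mitochondrion, fell by 0.25 between hearts without and with ERRα (adjusted p = 0.0374). Cpt1a, the liver-type form of the outer-membrane transferase, measured 8.59, 8.41 and 8.64 in KI:KO hearts, 8.96, 8.66 and 8.96 in ERRα KO hearts, 8.60, 8.43 and 8.33 in ErbB2 KI hearts and 8.51, 8.54 and 8.38 in WT hearts. Its 3 ERRα KO hearts lay above every WT heart, at 130% of the WT level, without passing the test (adjusted p = 0.134). The muscle-type transferase, Cpt1b, was not measured, so the main outer-membrane enzyme of the heart is missing from this step. Slc22a5, the carnitine transporter of the plasma membrane, differed by -0.29 (adjusted p = 0.0526), and Crat, which makes acetylcarnitine, by -0.03 (-0.16 to 0.09).

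Of the 13 β-oxidation genes, 8 fell in hearts without ERRα, none rose, and the median difference was -0.34. The acyl-CoA dehydrogenases take the chains in order of length. Acadvl, for very long chains, measured 10.61, 10.83 and 10.58 in KI:KO hearts and 10.63, 10.75 and 10.77 in ERRα KO hearts, against 11.17, 10.95 and 11.12 in ErbB2 KI hearts and 11.14, 11.19 and 11.07 in WT hearts. Acadm, for medium chains, averaged 12.14 ± 0.12 in KI:KO hearts and 12.25 ± 0.06 in ERRα KO hearts, against 12.49 ± 0.02 in ErbB2 KI hearts and 12.50 ± 0.03 in WT hearts (SD, n = 3 each). In neither gene did hearts without and with ERRα overlap.

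Acadvl fell by 0.41 between hearts without and with ERRα (adjusted p = 0.00327) and Acadm by 0.30 (adjusted p = 0.00891). Acadl, for long chains, differed by -0.09 (-0.22 to 0.05) and Acads, for short chains, by -0.05 (-0.20 to 0.11), neither of them called. Acad10, a less studied family member, differed by 0.18 (-0.10 to 0.46), and its hearts ranged from 4.38 to 5.36. Of the 5 acyl-CoA dehydrogenases, 2 were called lower and 3 were not called.

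Hadha and Hadhb encode the subunits of the mitochondrial trifunctional protein, which carries out the later reactions on long chains. Hadha measured 12.23, 12.28 and 12.07 in KI:KO hearts and 12.18, 12.32 and 12.21 in ERRα KO hearts, against 12.60, 12.56 and 12.56 in ErbB2 KI hearts and 12.59, 12.63 and 12.64 in WT hearts, with no overlap. Hadhb measured 4.70, 5.25 and 5.14 in KI:KO hearts and 5.03, 5.31 and 5.17 in ERRα KO hearts, against 5.56, 5.51 and 5.55 in ErbB2 KI hearts and 5.30, 5.71 and 5.38 in WT hearts. The probe set of Hadhb was dim, at the 50.8 percentile of all genes, and its highest ERRα KO heart overlapped the lowest WT heart. Hadha fell by 0.38 (adjusted p = 0.00207) and Hadhb by 0.40 (adjusted p = 0.0408) between hearts without and with ERRα.

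Hadh, the 3-hydroxyacyl-CoA dehydrogenase for shorter chains, lies on chromosome 3 (131233419 to 131272101) and had the smallest p among the members that fell. Its log2 values were 10.09, 10.43 and 10.35 in KI:KO hearts, 10.75, 10.70 and 10.74 in ERRα KO hearts, 11.07, 10.92 and 11.11 in ErbB2 KI hearts and 11.13, 11.08 and 11.03 in WT hearts. The genotypes formed 3 levels that did not overlap, KI:KO below ERRα KO and ERRα KO below the hearts with ERRα. Hadh fell by 0.55 between hearts without and with ERRα (95% interval -0.70 to -0.39; adjusted p = 5.9e-04). It stood at 57.9% of WT in KI:KO hearts (adjusted p = 8.8e-04), at 59.8% of ErbB2 KI in KI:KO hearts (adjusted p = 0.00175) and at 78.4% of WT in ERRα KO hearts, where it did not pass (adjusted p = 0.108).

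Acaa2, the thiolase that ends the round, measured 11.01, 11.11 and 10.87 in KI:KO hearts and 11.08, 11.09 and 11.09 in ERRα KO hearts, against 11.51, 11.42 and 11.34 in ErbB2 KI hearts and 11.47, 11.40 and 11.51 in WT hearts. It fell by 0.40 with no overlap (adjusted p = 0.00194). Echs1, the short-chain enoyl-CoA hydratase, differed by -0.07 (-0.23 to 0.09).

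Unsaturated chains need further enzymes, and these fell in part. Decr1, a dienoyl-CoA reductase, measured 8.96, 9.31 and 8.88 in KI:KO hearts and 9.23, 9.12 and 9.25 in ERRα KO hearts, against 9.65, 9.48 and 9.51 in ErbB2 KI hearts and 9.70, 9.42 and 9.60 in WT hearts, and fell by 0.44 (adjusted p = 0.00869). Eci2, an enoyl-CoA isomerase, fell by 0.34 (adjusted p = 0.0337), with ERRα KO hearts at 72.3% of WT and KI:KO hearts at 87.5% of WT. Eci1, the other isomerase, differed by -0.19 (-0.34 to -0.05; adjusted p = 0.112).

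Electron transfer from the dehydrogenases to ubiquinone runs through the flavoprotein ETF, made of Etfa and Etfb, and its oxidoreductase Etfdh. Etfb measured 10.41, 10.53 and 10.29 in KI:KO hearts and 10.40, 10.53 and 10.47 in ERRα KO hearts, against 10.81, 10.84 and 10.70 in ErbB2 KI hearts and 10.81, 10.78 and 10.84 in WT hearts, and fell by 0.36 with no overlap (adjusted p = 0.00425). Etfdh fell by 0.25 (adjusted p = 0.0451). Etfa, the partner of Etfb in the same protein, differed by -0.02 (-0.17 to 0.13).

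**Figure D2:**
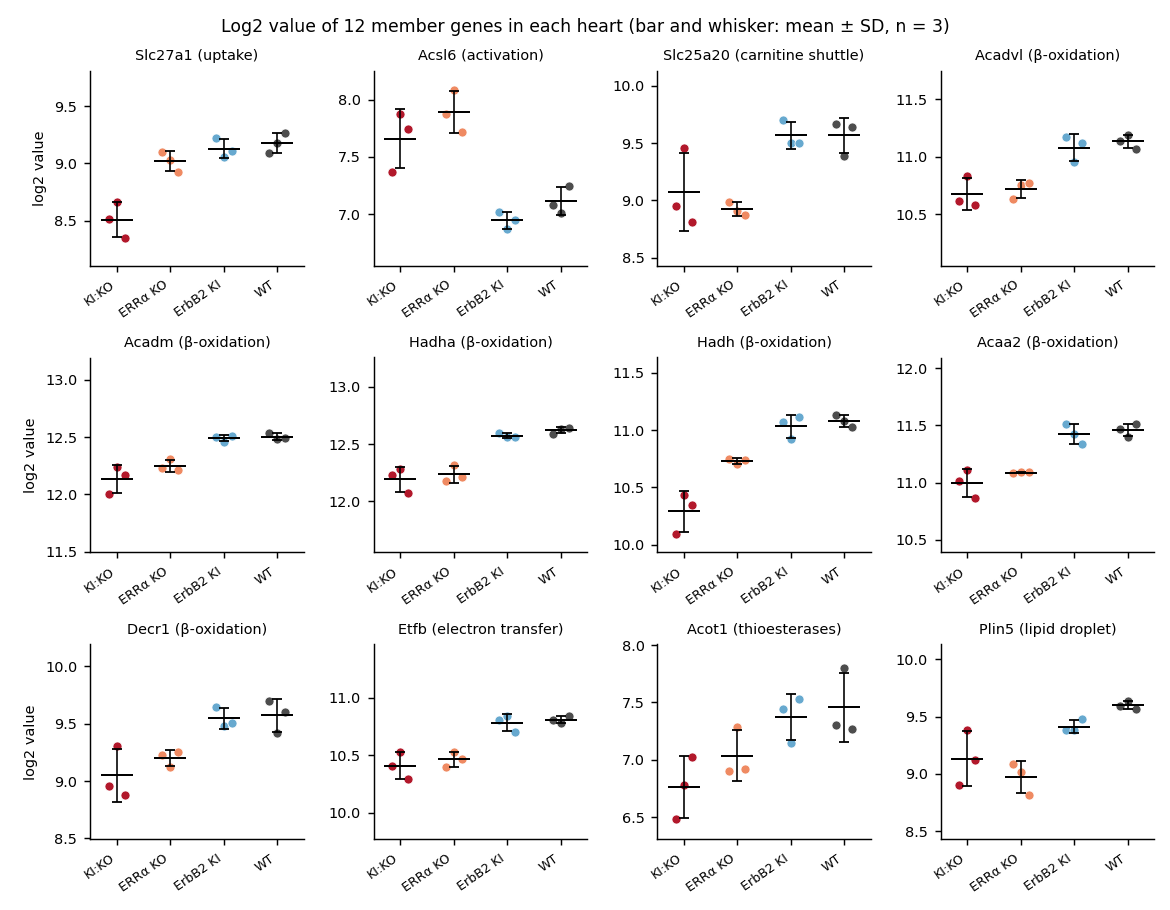
Log2 values of 12 members in each heart, with a point per heart and the mean ± SD of 3 hearts; each panel spans the same log2 range. Hearts without ERRα lie below hearts with it in most panels, Acsl6 lies above, and Slc27a1 and Hadh have KI:KO hearts below ERRα KO hearts.

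Thioesterases split acyl-CoA back to the free fatty acid. Acot1, the cytosolic form, measured 6.48, 6.78 and 7.02 in KI:KO hearts and 6.90, 7.29 and 6.92 in ERRα KO hearts, against 7.44, 7.15 and 7.53 in ErbB2 KI hearts and 7.30, 7.80 and 7.27 in WT hearts, and fell by 0.52 (adjusted p = 0.0315) although the hearts without and with ERRα overlapped. Acot1 and the mitochondrial form Acot2 are neighbours of nearly the same sequence on chromosome 12, so their signals may not be fully separate. Acot2 differed by -0.22 (adjusted p = 0.183) and Acot13 by -0.01 (-0.15 to 0.13).

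Malonyl-CoA blocks entry into the carnitine shuttle. Acacb, the carboxylase at the mitochondrial surface that makes it, measured 8.73, 8.85 and 8.66 in KI:KO hearts and 8.75, 8.84 and 8.78 in ERRα KO hearts, against 9.13, 8.93 and 9.06 in ErbB2 KI hearts and 9.08, 9.18 and 9.02 in WT hearts. The sides did not overlap, and Acacb fell by 0.30 (adjusted p = 0.0141). Mlycd, which breaks malonyl-CoA down, differed by -0.03 (-0.17 to 0.11). Of these opposed enzymes, the one that makes the inhibitor was called lower and the one that removes it was not called.

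At the lipid droplet, Plin5, a coat protein that ties droplets to mitochondria, measured 8.90, 9.38 and 9.12 in KI:KO hearts and 9.09, 9.02 and 8.82 in ERRα KO hearts, against 9.38, 9.38 and 9.48 in ErbB2 KI hearts and 9.59, 9.64 and 9.57 in WT hearts. The highest KI:KO heart lay just under the lowest ErbB2 KI hearts, and no heart without ERRα reached a heart with it. Plin5 fell by 0.46 between hearts without and with ERRα (adjusted p = 0.00585), to 64.7% of WT in ERRα KO hearts (adjusted p = 0.0170) and to 72% in KI:KO hearts (adjusted p = 0.0374). Pnpla2, adipose triglyceride lipase, differed by -0.11 (-0.28 to 0.06).

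Of the 17 calls, 12 held when each of the 12 hearts was left out in turn. The other 5 each lost the call without 1 of several hearts, with the sign kept throughout. Cpt2 kept it only without ErbB2 KI heart 2, ERRα KO heart 1 or KI:KO heart 2, Hadhb only without WT heart 1, ERRα KO heart 2, KI:KO heart 2 or KI:KO heart 3, Eci2 only without WT heart 2 or KI:KO heart 2, and Etfdh only without KI:KO heart 2. Acot1 kept it without WT heart 1, WT heart 3, ErbB2 KI heart 2, ERRα KO heart 2 or KI:KO heart 3. Without the set of 4 arrays, an alternative chosen after seeing the data, 7 calls held, those of Acsl6, Slc25a20, Hadha, Hadh, Acaa2, Etfb and Acot1. The calls of Slc27a1 (adjusted p = 0.0709), Acadvl (0.0676), Acadm (0.0717), Decr1 (0.0570), Acacb (0.134), Plin5 (0.0881), Cpt2, Hadhb, Eci2 and Etfdh were lost with only 8 hearts left. Within those 4 arrays the median difference of the 16 genes that fell was -0.40 and in the other 8 arrays -0.37, and all 16 were below 0 in both.

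**Figure D3:**
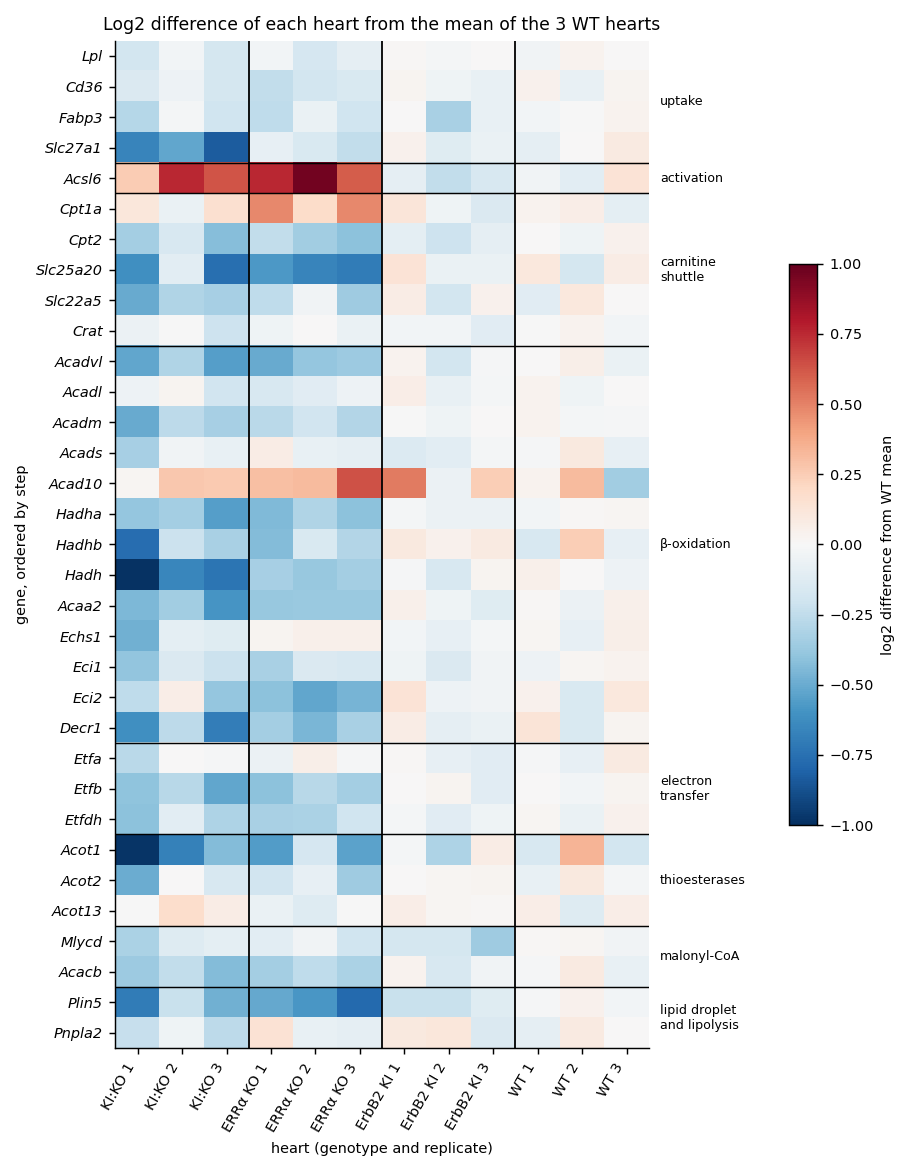
Log2 difference of each heart from the mean of the WT hearts for the 33 genes, by step and genotype; blue is lower and red higher. KI:KO hearts 1 and 3 and the ERRα KO hearts are blue over most rows, KI:KO heart 2 is paler, and Acsl6 is red in all hearts without ERRα.

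Averaged over the 33 genes, KI:KO hearts stood at -0.37, -0.13 and -0.29 from the WT mean, ERRα KO hearts at -0.19, -0.15 and -0.20, and ErbB2 KI hearts at 0.02, -0.10 and -0.05. KI:KO heart 2 was the mildest of its group, with 18 genes below all 3 WT hearts, against 29 and 27 in KI:KO hearts 1 and 3. The ERRα KO hearts had 23, 22 and 27 such genes, and the ErbB2 KI hearts had 5, 19 and 12. No share of all genes below all 3 WT hearts is given here, so these counts have no background.

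Relative to WT, KI:KO hearts had 11 genes that fell (Slc27a1, Acadvl, Acadm, Hadha, Hadh, Acaa2, Decr1, Etfb, Acot1, Acacb and Plin5) and Acsl6 that rose, against 2.66% and 2.94% of all genes. The median difference was -0.25, against -0.01 for all genes, and 29 of 33 genes were below 0. Leaving out 1 heart gave 4 calls without WT heart 1, 5 without WT heart 2, WT heart 3 or KI:KO heart 1, 6 without KI:KO heart 3 and 10 without KI:KO heart 2. Of those 10, 9 were among the main calls and Slc25a20 was new. With only the KI:KO and WT hearts in the fit 2 were called, and 1 without the set of 4 arrays.

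ERRα KO hearts had 5 genes that fell relative to WT (Slc25a20, Acadvl, Hadha, Acaa2 and Plin5) and Acsl6 that rose, against 1.21% and 1.14% of all genes. The median difference was -0.21, against 0.00 for all genes. These calls lay close to the threshold, with adjusted p from 0.0119 to 0.0483. None was left without WT heart 1 or 2, 1 without WT heart 3 or ERRα KO heart 3, and 2 without ERRα KO heart 1 or 2. Without the set of 4 arrays none was left. The calls of Slc25a20, Acadvl, Hadha and Acaa2 were each lost without any 1 of these 6 hearts.

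KI:KO hearts set against ErbB2 KI hearts gave the effect of ERRα loss on the ErbB2 KI background. Here 8 genes fell (Slc27a1, Acadvl, Acadm, Hadha, Hadh, Acaa2, Decr1 and Etfb) and Acsl6 rose, against 1.69% and 2.22% of all genes, with a median difference of -0.21. Leaving out ErbB2 KI heart 1, ErbB2 KI heart 2 or KI:KO heart 3 left 3 calls, ErbB2 KI heart 3 or KI:KO heart 1 left 4, and without the set of 4 arrays 1 was left.

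This comparison shares no heart with that of ERRα KO and WT. Acadvl, Hadha and Acaa2 were called lower in both, which is 37.5% of the 8 called on the ErbB2 KI background and 60% of the 5 called on the WT background, and Acsl6 was called higher in both. No share of all genes called in both is given here. On the WT background each of the 3 lower calls was lost without any 1 of the 6 hearts. On the ErbB2 KI background Acadvl lost its call without 4 of the 6 hearts in turn, Hadha without 5 and Acaa2 without 3. Of the 33 genes, 27 were below 0 in both, 2 above 0 in both and 4 of opposite sign, while 31.1% of all genes were below 0 in both. Across the 33 genes, which share arrays and are not independent, the differences had a Pearson r of 0.772 and a Spearman rho of 0.746, against an r of 0.405 across all genes.

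**Figure D4:**
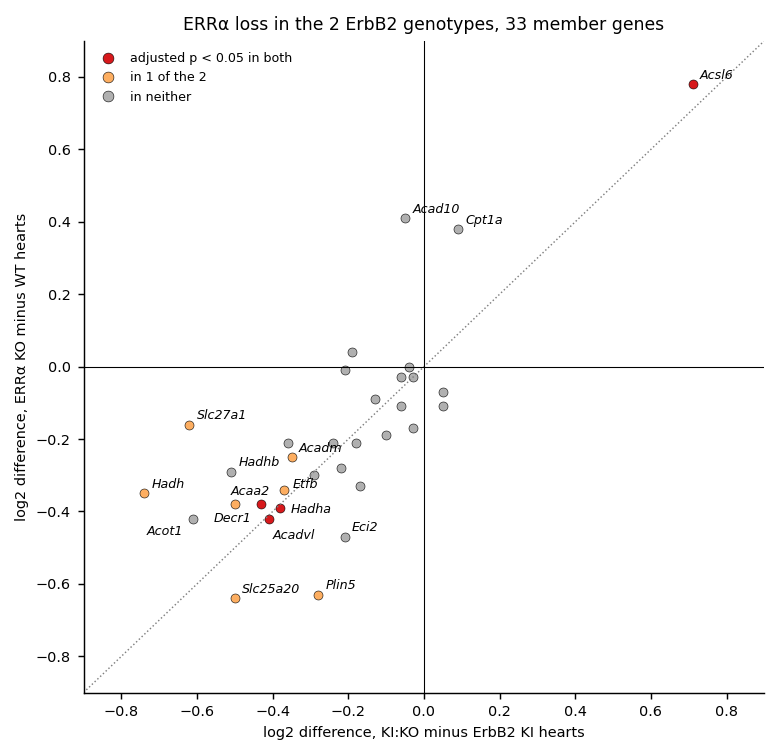
Log2 difference of each of the 33 genes on the ErbB2 KI background (x axis, KI:KO minus ErbB2 KI hearts) and on the WT background (y axis, ERRα KO minus WT hearts); the dotted line marks equal differences. Acadvl, Hadha and Acaa2 lie near the line at the lower left, Acsl6 at the upper right, and Hadh and Slc27a1 lie left of the line.

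Whether the effect of ERRα loss differed with the ErbB2 genotype was tested as an interaction. No member passed (limma, 0 of 33 called, against 0.00902% of all genes called). At an unadjusted p under 0.05 there were 2 members, with no share of all genes at that level given here. Those 2 were Slc27a1, at -0.46 (adjusted p = 0.514), and Hadh, at -0.39 (adjusted p = 0.602). A difference between the ErbB2 genotypes in the effect of ERRα loss was thus not shown for either gene.

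KI:KO hearts set against ERRα KO hearts gave 0 calls, against 0.329% of all genes called. At an unadjusted p under 0.05 there were 5 members, again without a share of all genes at that level. Slc27a1 stood at 70.4% of ERRα KO (adjusted p = 0.0629) and Hadh at 73.8% (adjusted p = 0.101), and in both all KI:KO hearts lay below all ERRα KO hearts. Such a separation held for 5 of the 33 members, and 1 member was separated the other way. No share of all genes separated in this way is given here. Slc27a1 passed after quantile normalization, and both passed with an intensity trend, with dim genes left out and at the threshold of the study's methods, an unadjusted p under 0.05 and 1.2-fold. Of all genes, 83 passed after quantile normalization, 294 with the trend, 237 with dim genes left out and 1051 at the methods' threshold. The remaining 3 of the 5 members were Cpt1a (80.7%), Echs1 (82.7%) and Eci2 (121%), with adjusted p from 0.333 to 0.450.

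ErbB2 KI hearts did not differ from WT in any member by limma (0 of 33 called, against 0.0135% of all genes called). The test of the study's methods called none either. The 33 differences ran from -0.24 to 0.24 with a median of -0.05. Mlycd was the 1 gene at an unadjusted p under 0.05, at 84.9% of WT, measuring 7.61, 7.61 and 7.43 in ErbB2 KI hearts and 7.80, 7.81 and 7.75 in WT hearts. Its adjusted p was 0.890. Averaged over both ERRα genotypes, the knock-in gave 0 calls, against 0.122% of all genes called. There were 4 members at an unadjusted p under 0.05. Neither comparison has a share of all genes at an unadjusted limma p beside it.

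Lists of genes around the pathway were counted in the same way for hearts without against hearts with ERRα. Of 17 other uptake and activation genes, 2 fell and 1 rose, with a median of -0.02. Acsl4, an acyl-CoA synthetase with a preference for arachidonic acid, rose by 0.71 and measured 7.67, 7.49 and 7.34 in KI:KO hearts and 7.25, 7.26 and 7.35 in ERRα KO hearts, against 6.81, 6.56 and 6.60 in ErbB2 KI hearts and 6.69, 6.80 and 6.61 in WT hearts (adjusted p = 1.5e-04). Both acyl-CoA synthetases that rose, Acsl4 and Acsl6, separated all hearts. Vldlr, the VLDL receptor, fell by 0.47 (adjusted p = 0.00175) and Acss2, which makes acetyl-CoA from acetate, by 0.54 (adjusted p = 0.00238). Slc27a2, another transport protein of this family, was not called in this average (-0.31, adjusted p = 0.222) and was called lower in KI:KO hearts at 58.3% of ErbB2 KI (adjusted p = 0.0366), a call that held among the fits with 1 heart left out only without ErbB2 KI heart 3.

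Of 21 other genes of triglyceride storage and lipolysis, 6 fell and none rose, with a median of -0.10. Dgat2, which makes triglycerides from diacylglycerol, measured 8.72, 9.17 and 8.87 in KI:KO hearts and 8.83, 8.84 and 8.66 in ERRα KO hearts, against 9.97, 9.72 and 9.84 in ErbB2 KI hearts and 9.86, 9.78 and 9.82 in WT hearts. It stood at 53.8% of WT in KI:KO hearts (adjusted p = 0.00113) and at 48.6% of WT in ERRα KO hearts (adjusted p = 6.6e-04), with no overlap. Cidea, a lipid droplet protein also used as a brown fat marker, fell by 0.93 (adjusted p = 2.2e-04), Fitm2, which acts in droplet formation, by 0.48 (adjusted p = 0.00101), and its muscle relative Fitm1 by 0.44 (adjusted p = 0.00411).

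A wider list of 26 genes, plotted as other mitochondrial acyl-CoA oxidation but reaching into other acyl-CoA breakdown and coenzyme A turnover, had 6 that fell and 1 that rose, with a median of -0.18. Of the 6, Ivd, Pccb and Mmut serve the breakdown of branched-chain amino acids and propionate, and not of long fatty acids. Echdc2, related to enoyl-CoA hydratases, stood at 48.9% of WT in KI:KO hearts (adjusted p = 7.0e-05) and 57% in ERRα KO hearts (adjusted p = 5.5e-04), and Acad11, an acyl-CoA dehydrogenase, fell by 0.60 (adjusted p = 3.5e-04). The coenzyme A diphosphatases of the peroxisome moved apart, since Nudt7 fell by 0.41 (adjusted p = 0.00134) and Nudt19 rose by 0.61 (adjusted p = 1.0e-04). Of 17 other carnitine and thioesterase genes 3 fell, with a median of -0.02. These were Crot, the peroxisomal carnitine octanoyltransferase, by 0.34 (adjusted p = 0.00281), Aldh9a1, which acts in carnitine synthesis, by 0.37 (adjusted p = 0.0214) and Acot7 by 0.28 (adjusted p = 0.0177). Acot11, a thioesterase of brown fat, was called higher in KI:KO hearts at 144% of WT (adjusted p = 0.00681).

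AMP-activated kinase, which restrains acetyl-CoA carboxylase, had subunits that moved in both directions. Of 15 genes of this list 3 fell and 1 rose, with a median of -0.08. Prkag3, the γ3 subunit known from glycolytic skeletal muscle, measured 6.27, 6.03 and 6.04 in KI:KO hearts, 5.59, 5.20 and 5.29 in ERRα KO hearts, 4.99, 4.89 and 5.20 in ErbB2 KI hearts and 5.32, 4.67 and 4.99 in WT hearts, and stood at 218% of WT in KI:KO hearts (adjusted p = 0.00201). Prkag1 fell by 0.26 (adjusted p = 0.0130), Prkab1 by 0.32 (adjusted p = 0.0177) and Prkab2 by 0.30 (adjusted p = 0.0367). The call of Prkab1 was lost without WT heart 3, and that of Prkab2 held only without ERRα KO heart 1, ERRα KO heart 3 or KI:KO heart 1.

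PPARα drives many of the same genes, and of 16 PPAR-responsive genes outside the members 3 fell and none rose, with a median of -0.22. These were Slc25a42, the mitochondrial coenzyme A carrier, by 0.53 (adjusted p = 0.00354), Slc25a34, a related carrier, by 0.48 (adjusted p = 0.00491) and Ehhadh, the peroxisomal bifunctional enzyme, by 0.34 (adjusted p = 0.0490). Ehhadh kept its call only without KI:KO heart 3 and lost it without any of the other 11 hearts. Ucp3, a mitochondrial carrier, was not called in the average (-0.46, adjusted p = 0.206) and was called lower in KI:KO hearts at 48.1% of WT (adjusted p = 0.0365). That call held without KI:KO heart 3 and was lost without any other KI:KO or WT heart (highest adjusted p = 0.144). Of 19 nuclear receptors and coactivators, 2 fell and 1 rose, with a median of 0.04. Beside Esrra itself, the corepressor Nrip1 fell by 0.30 (adjusted p = 0.0178), and Ppargc1a, which encodes PGC-1α, rose by 0.59 (adjusted p = 0.00416). Among the neighbouring genes named, Nrip1 lost its call without ErbB2 KI heart 1, Acot7 without WT heart 1 or 3 and Aldh9a1 without WT heart 1 or ERRα KO heart 3. Without the set of 4 arrays Fitm1, Crot, Acot7, Aldh9a1, Prkag1, Prkab1, Prkab2, Slc25a42, Slc25a34, Ehhadh and Nrip1 lost theirs in the average, and Acot11 in KI:KO against WT.

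**Figure D5:**
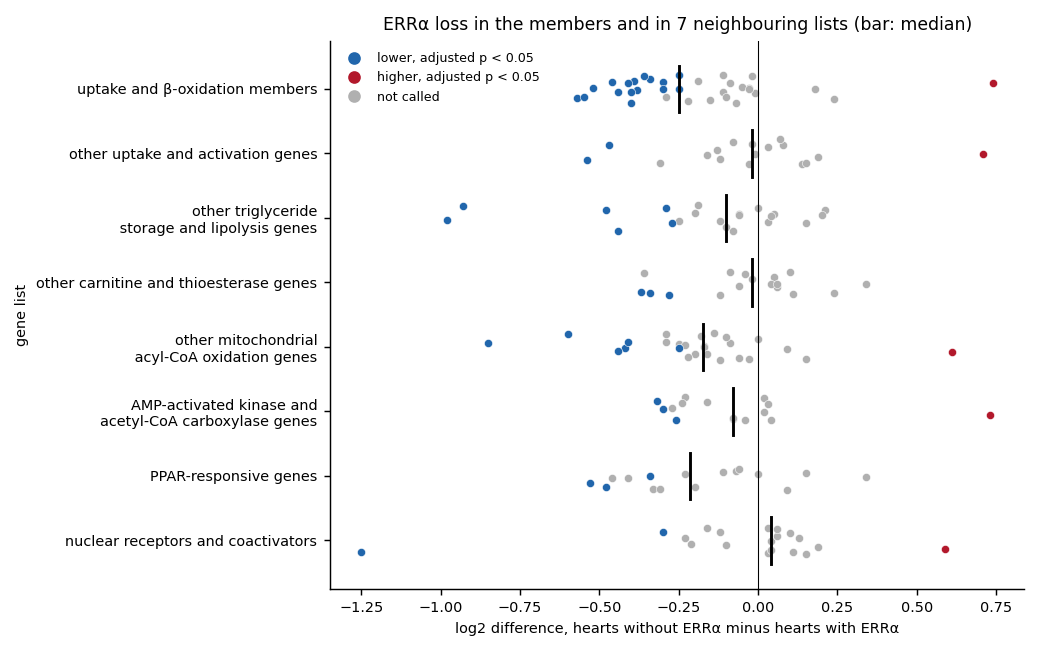
Log2 difference between hearts without and with ERRα for the 33 members and for each measured gene of 7 neighbouring lists, with the median of each list as a bar; blue and red points passed an adjusted p of 0.05. The members have the lowest median, -0.25, and single genes such as Dgat2, Cidea and Echdc2 lie further left than any member.

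Marker lists of cell types were read in the same hearts, and macrophage markers were the list in which most members were called. The mean log2 level of 13 cardiomyocyte markers was 12.04 to 12.14 in KI:KO hearts and 12.13 to 12.19 in ERRα KO hearts, against 12.24 to 12.26 in ErbB2 KI hearts and 12.26 to 12.28 in WT hearts. Between hearts without and with ERRα 3 of the 13 fell, with a median difference of -0.08, and the smallest p in KI:KO relative to WT hearts belonged to Mybpc3 (71.9%) and Myl3 (72.1%), both of the sarcomere. The call of Myl3 was lost without WT heart 1. Their part in the falls of the members was not tested.

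The mean level of 13 macrophage markers was 7.78 to 8.03 in KI:KO hearts, 7.27 to 7.77 in ERRα KO hearts, 7.02 to 7.19 in ErbB2 KI hearts and 7.03 to 7.18 in WT hearts, and 10 of the 13 rose between hearts without and with ERRα. Mrc1 stood at 180% of WT in KI:KO hearts and Cd14 at 171%. Fibroblast markers were at 8.78 to 9.66 in KI:KO hearts, 8.71 to 9.13 in ERRα KO hearts, 8.52 to 8.69 in ErbB2 KI hearts and 8.52 to 8.55 in WT hearts, with 3 of 10 higher, among them Ddr2 at 135% and Postn at 288% of WT in KI:KO hearts, Postn being highest in KI:KO heart 1 at 11.41. Without KI:KO heart 1 the log2 difference of Postn from WT was 0.91 in place of 1.52, and its call was lost without any 1 of the WT hearts. The call of Ddr2 relative to WT was lost without WT heart 1 or 3 or KI:KO heart 1 or 2. Endothelial markers, a list that holds the member Cd36, spanned 8.99 to 9.46 in KI:KO hearts and 9.10 to 9.15 in ERRα KO hearts, against 9.15 to 9.22 in ErbB2 KI hearts and 9.15 to 9.27 in WT hearts, with 1 of 11 lower, Kdr at 64.7% of WT in KI:KO hearts, while Vwf stood at 161% (adjusted p = 0.0720). The call of Kdr relative to WT held only without KI:KO heart 3, and 6 of the 11 markers were below 0 between hearts without and with ERRα. Whether these shifts contribute to the members' differences was not tested.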

How the data were processed

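Heart RNA of 12 mice was hybridised to Affymetrix Mouse Gene 2.0 ST arrays, 3 per genotype, with groups taken from the genotype labels. The deposited values are log2 values that the authors obtained with the RMA method of Expression Console 1.4.1, and they were used unchanged. RMA brings all arrays to 1 distribution, so that a change is relative to the other probe sets. In the platform annotation 23521 of 41345 probe sets had 1 gene, 1820 had several and 16004 had none. The brightest probe set on average stood for each of 22180 genes.

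A limma model (version 3.58.1 in R 4.3.3) of 4 group means was fitted to every gene, with 8 residual and 3.81 prior degrees of freedom. P-values were two-sided and adjusted by Benjamini-Hochberg over all genes of a comparison, and an adjusted p under 0.05 counted as a call. The number of arrays limits the precision. Whether hearts came from separate litters is not given in the sources used here. The fit was tested on simulated data.

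The members and lists were chosen with earlier results of these data known. The text names all 35 members, Esrra and Erbb2, from each pathway list up to 4 genes with the smallest p for ERRα loss among those called anywhere, and from each marker list up to 2 with the smallest p in KI:KO relative to WT. Alternatives were the one-way ANOVA of the methods (adjusted, or unadjusted with 1.2-fold), a fit of the compared groups alone, dim genes up to the 40th percentile left out, every probe set tested or those of a gene averaged, values quantile-normalized or centred on array medians, a variance trend with intensity, weights for arrays, a block for the replicate number, a 1.2-fold limit beside the adjusted p, and each array left out. A block for the set of 4 arrays, and its removal, were chosen after seeing the data. Positions and promoters came from RefSeq (GRCm38.p6), and the promoters of Lpl, Cpt1b, Crat, Acaa2, Decr1 and Acot13 were not used here. Plots used matplotlib 3.10.9 under Python 3.11.15.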

Additional observations from a re-analysis of the deposited data

Results flagged for a closer look

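Echs1, the short-chain enoyl-CoA hydratase, showed differences of opposite sign between the ErbB2 genotypes, with every heart without ERRα on that side of the mean of its reference hearts. ERRα loss gave -0.19 on the ErbB2 KI background, where KI:KO hearts measured 10.17, 10.55 and 10.53 against 10.62, 10.57 and 10.63 in ErbB2 KI hearts, and 0.04 on the WT background, where ERRα KO hearts measured 10.68, 10.70 and 10.70 against 10.67, 10.57 and 10.71 in WT hearts. The interaction was -0.23 (limma, adjusted p = 0.786), so the difference between backgrounds did not pass the test of it.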

How the results depend on the processing

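No member changed direction under any alternative while called, and scaling by quantiles or array medians moved the median of all genes by at most 0.04. The average over both ErbB2 genotypes gave 17 calls, 12 to 16 when 1 heart was left out and 7 without the set of 4 arrays. Counts of single comparisons moved more. KI:KO against WT (12 calls) gave 2 with only those groups in the fit, 5 with all probe sets, 1 without the set of 4 arrays and 4 to 10 with 1 heart left out. Of all genes, the first 3 of these settings called 626, 708 and 657, against 1243 in the main fit. ERRα KO against WT (6 calls) gave 3 with only those groups, 1 with all probe sets, 11 with dim genes left out, 14 with an intensity trend, 10 with array weights, 14 at the methods' unadjusted threshold, 0 without the set of 4 arrays and 0 to 2 with 1 heart left out. Of all genes, 316 were called with only those groups, 255 with all probe sets and 879 of 13308 with dim genes left out. The trend called 908, array weights 871, the methods' threshold 1761 and the fit without the set of 4 arrays 243, against 521 in the main fit. KI:KO against ErbB2 KI (9 calls) gave 2 with only those groups, 3 with all probe sets, 1 without the set of 4 arrays and 3 to 9 with 1 heart left out. Of all genes, the first 3 of these settings called 337, 440 and 462, against 867 in the main fit. KI:KO against ERRα KO (0 calls) gave 2 at the methods' threshold, 2 with dim genes left out, 1 after quantile normalization and 2 with an intensity trend. Of all genes, these settings called 1051, 237, 83 and 294, against 73 in the main fit. After adjustment the methods' ANOVA called 0 members in each of these comparisons of groups. Of all genes it called 81 in KI:KO against WT and 110 in ERRα KO against WT. It called 0 of all genes in KI:KO against ErbB2 KI and in KI:KO against ERRα KO. Fewer samples or more tests enter some of these fits, and otherwise the cause was not tested.

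Replicate numbers did not pair the hearts, since deviations from group means of hearts with the same number correlated at 0.03 to 0.14 for number 1, -0.19 to 0.20 for number 2 and -0.19 to 0.18 for number 3. With the replicate block, 6 members were called in KI:KO against WT, 2 in ERRα KO against WT, 4 in KI:KO against ErbB2 KI and 14 in the average. Of all genes, 1008, 362, 680 and 1277 were called there in the same order. A block for the set of 4 arrays kept all 12 hearts in the fit. It gave 14 calls in KI:KO against WT, 6 in ERRα KO against WT, 10 in KI:KO against ErbB2 KI and 18 in the average. Of all genes, 1444, 568, 1005 and 1663 were called there in the same order. Of the main calls in these comparisons, only that of Acadvl in ERRα KO against WT was lost (limma, adjusted p = 0.0532).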

Other observations

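The mean levels of adipocyte markers varied between genotypes in a pattern that an average over ERRα genotypes does not show. In no single marker did the interaction of the alleles pass. The mean log2 level of 8 white adipocyte markers, among them the member Lpl, was 7.16 to 7.51 in KI:KO hearts, 7.48 to 7.61 in ERRα KO hearts, 7.25 to 7.79 in ErbB2 KI hearts and 6.96 to 7.16 in WT hearts. None of the 8 was called by limma in any comparison. At an unadjusted p under 0.05 there were 3 in KI:KO against WT (median difference 0.20) and 4 in ERRα KO against WT (0.55). There were 4 in ErbB2 KI against WT (0.46) and 0 in the average for ERRα loss (0.10). The interaction of the alleles had 4 (-0.85, with all 8 below 0). No share of all genes at that unadjusted p stands beside these counts. Relative to WT, Fabp4 and Lpl were the 2 markers below 0 in KI:KO and in ERRα KO hearts, and 0 were below in ErbB2 KI hearts.

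Cidec, a lipid droplet protein of fat cells, measured 5.95, 5.46 and 6.40 in KI:KO hearts, 6.43, 6.49 and 6.19 in ERRα KO hearts, 6.90, 6.42 and 5.96 in ErbB2 KI hearts and 4.77, 5.14 and 5.69 in WT hearts. It stood at 167% of WT in KI:KO hearts (adjusted p = 0.189), at 226% in ERRα KO hearts (adjusted p = 0.0583) and at 234% in ErbB2 KI hearts (adjusted p = 0.504). Retn, the adipokine resistin, stood at 185% of WT in KI:KO hearts (adjusted p = 0.106), at 191% in ERRα KO hearts (adjusted p = 0.140) and at 195% in ErbB2 KI hearts (adjusted p = 0.735). WT hearts had the lowest mean of both genes.

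The 7 brown adipocyte markers were at 6.75 to 6.89 in KI:KO hearts, 7.14 to 7.37 in ERRα KO hearts, 7.12 to 7.74 in ErbB2 KI hearts and 6.72 to 6.94 in WT hearts. Ucp1, the uncoupling protein that defines brown fat, was singled out after its values were seen. It measured 5.70, 4.44 and 5.38 in KI:KO hearts, 6.69, 7.93 and 8.21 in ERRα KO hearts, 9.15, 7.37 and 6.99 in ErbB2 KI hearts and 5.58, 4.81 and 4.35 in WT hearts. The hearts with a single defect lay above all KI:KO and WT hearts. The rest of the list did not follow Ucp1 as a whole. Relative to WT, 3 of the 7 markers were below 0 in ERRα KO hearts, and 2 in ErbB2 KI hearts. The median differences of the list were 0.26 and 0.08, against 2.70 and 2.92 for Ucp1, the highest of the list. Ucp1 was called higher in ERRα KO relative to WT hearts (log2 2.70, adjusted p = 0.0284) and lower in KI:KO relative to ErbB2 KI hearts (-2.66, adjusted p = 0.0219). Its difference of 2.92 in ErbB2 KI relative to WT hearts (adjusted p = 0.252) and its interaction of -5.36 (adjusted p = 0.110) did not pass. In the average for ERRα loss Cidea fell, and Ppargc1a and Dio2, the deiodinase that activates thyroid hormone, rose, Dio2 by 0.70 on the log2 scale (adjusted p = 0.00728). Cidea and Ppargc1a are also on the lists of triglyceride storage and of coactivators. The part of fat in the hearts' differences was not tested.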
